A study of Arabidopsis thaliana with 9 samples.

Results

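Wild-type Arabidopsis thaliana callus (ecotype Col-0, no treatment) was described from its 3 mRNA libraries, which are 3 of the 9 libraries of the study. They were chosen by the label wild type, so no measured value entered the choice. Callus is the mass of dividing cells that cut plant tissue forms on hormone medium. Hypocotyl pieces of 5 to 7 mm were taken from dark-grown seedlings, kept for 4 days on callus induction medium and then for 10 days on shoot induction medium, and total RNA came from about 50 mg of tissue per sample. The other 6 libraries, of a pnet1 mutant and a PNET1 overexpression line grown by the same protocol, were not compared here. The labels do not say whether the 3 replicates came from separate cultures, so their spread may be technical.

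The first of these media is rich in auxin and turns cells near the vascular tissue into callus that resembles a root primordium. The second is rich in cytokinin, under which parts of the callus switch to a shoot programme, form shoot meristems and turn green. The tissue at this stage can therefore be a mixture of callus, vascular cells and young shoot structures, but its composition was not measured here. In such a bulk sample, fewer cells of a type and less RNA per cell cannot be told apart.

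Levels are the authors' FPKM values, fragment counts scaled to gene length and library size, and are listed for replicates 1, 2 and 3 in that order. A gene was called on at 1 FPKM or more in each library and silent at under 0.1 FPKM in each library. For a gene of the median protein-coding length, 1546 bases, 1 FPKM stood for 26.1 to 30.0 counts and 0.1 FPKM for 2.61 to 3 counts. The libraries held 19493969, 16890848 and 18940749 counts. Of 32833 annotated genes, 17771 (54.1%) were on and 9812 (29.9%) were silent. Among 27628 protein-coding genes 62.9% were on and 22.1% were silent, which is the background for the lists that follow. The lists hold 668 genes, of which 501 were on, 112 lay between and 55 were silent. Between means neither on nor silent by these rules, so single libraries of such a gene can lie outside the 2 thresholds. Transcripts of plastid-encoded genes made up 0.00563% ± 0.000811 of counts (SD, n = 3) and those of mitochondrial genes 0.0294% ± 0.00371.

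The 100 highest genes held 17.1% ± 0.0982 of all FPKM (SD, n = 3), and 94 genes were among the 100 highest in every library. The median level of a gene that was on was 12.5 FPKM, 1030 genes reached a mean of 100 FPKM and 36 reached 1000. Genes for cytosolic ribosomal proteins, as far as their deposited description let them be recognised, held 9.27% ± 0.251 of all FPKM (SD, n = 3). Of 217 such genes 197 were on, 8 were silent, and the median was 231 FPKM. Of the 100 highest genes 24 were among them. Ribosomal protein genes with other descriptions, such as RPL14B, RPL8A and RPL15A, were missed, so the share and the 24 are lower limits.

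BGLU18 was the most abundant transcript at 5277, 5212 and 5460 FPKM. It encodes a beta-glucosidase that releases abscisic acid from its glucose ester, and lies on chromosome 1 at 19514989 to 19518411 of TAIR10, plus strand. BGLU23, also called PYK10, followed at 4727, 4000 and 4100 FPKM. This beta-glucosidase is the main protein of ER bodies, defence compartments of the endoplasmic reticulum, and lies on chromosome 3 at 2840477 to 2843781, minus strand. BGLU18 was above BGLU23 in all 3 libraries, a pairing for which 3 libraries allow no two-sided exact p below 0.25.

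The next genes were ATGRP9, a glycine-rich protein (3350, 2972 and 3481 FPKM), and ATTI3, a defensin-like protein (2893, 2885 and 2737). TCTP1, a growth-related protein of dividing cells, was at 2547, 2703 and 2682 FPKM. After these stood PER34, a cell wall peroxidase, PDF2.2, a defensin, and MLP28, of the major latex protein family, with means of 2397, 2333 and 1842 FPKM. SAHH1, which recycles the by-product of methylation reactions, had a mean of 1577 FPKM. The rest of the 25 highest genes lay between 1097 and 1520 FPKM. They included LHCB1.3 of the light-harvesting antenna, RBCS1A of the carbon-fixing enzyme Rubisco, the lipid transfer proteins LTP1 and LTP2, the ascorbate-recycling enzyme DHAR1 and the elongation factor 1-alpha gene A1. Also among them were the chaperone gene MED37E, the RNA-binding protein gene RBG7, the metallothionein MT2B, the gluconeogenic enzyme PCKA, the polyubiquitin UBQ10, RPS8A of the small ribosomal subunit, the polygalacturonase inhibitor PGIP2, AT3G18280 of the lipid transfer family, the vegetative storage protein VSP2 and the nucleoside diphosphate kinase NDK1. Of the 24 pairs of neighbours in this order, 7 kept their order in all 3 libraries and 17 did not, so most ranks below the first 5 do not differ beyond the spread. LHCB1.3, RBCS1A and A1 belong to families of near-identical genes, among which the authors' counting could have split reads.

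**Figure D1:**
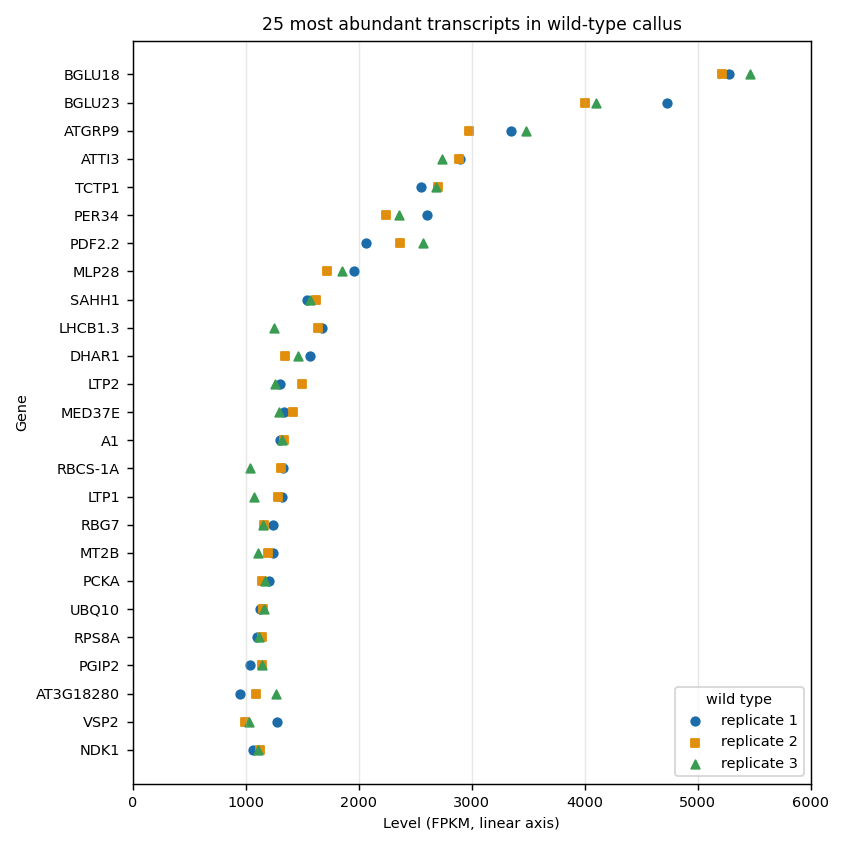
Level of the 25 most abundant transcripts in wild-type callus, in FPKM on a linear axis, with 1 point per library. BGLU18 and BGLU23 stand above 4000 FPKM in every library, and replicate 3 is the lowest library for LHCB1.3, RBCS1A (written RBCS-1A) and LTP1.

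Because BGLU23 ranked so high, genes of ER bodies and of the PYK10 complex were collected after their values were seen. All 18 were on, with a median of 229 FPKM, and they held 2.48% ± 0.154 of all FPKM (SD, n = 3). This share includes BGLU23 itself, at a mean of 4276 FPKM, and the most abundant transcript BGLU18, at a mean of 5317. It therefore largely restates the highest levels in the data, including the level that prompted the list. TSA1, an ER body protein of leaves, was at 386, 318 and 343 FPKM, and its relative NAI2, needed to form ER bodies in seedlings, at 209, 178 and 182. NAI1, the transcription factor that controls them, was at 36.6, 32.2 and 35.7 FPKM. The lectins of the complex ranged from JAL31, at 52.5, 38.3 and 41.2 FPKM, to JAL35, at 1078, 991 and 1040. BGLU21, a close copy of BGLU23, reached only 1.14, 1.85 and 2.07 FPKM, and counts between such copies are uncertain. Replicate 1 was the highest library for 16 of the 18 genes, against 6129 of all 17771 genes that were on.

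Short promoter motifs were counted beside the levels. The 200 bases before the annotated start were searched on both strands in 27412 protein-coding genes for 4 motifs. The site II element of growth genes was spelled GGCCCA. The telo box was spelled AAACCCTA, the TATA box TATAAA and the light-related G box, which is its own reverse complement, CACGTG. No motif contains another. The site II element was in 52.5% of the promoters of the recognised cytosolic ribosomal protein genes and in 12.6% of all promoters. It was in 35% of the promoters of the 100 highest protein-coding genes. With the recognised ribosomal protein genes left out, it was in 21% of the 100 highest, but ribosomal protein genes with other descriptions were not removed. It was in 16.6% of the promoters of genes that were on. Among silent genes not over 50% covered by another gene, it was in 4.55%. The telo box was in 19.8% of ribosomal protein promoters and in 3.71% of all, and its order between on and silent genes was the other way round, at 2.88% of genes on and 6.48% of the same silent genes. The G box was in 16.7% of the 36 light-harvesting and Calvin cycle promoters and in 5.64% of all. These shares describe letters in a window and were not tested. A set of 3 promoters is given as examples, each as the 150 bases before the start in TAIR10. They are read on the gene's strand from 5′ to 3′ with motifs in capitals. BGLU18 (chr1:19514839-19514988) has none of the motifs. BGLU23 (chr3:2843782-2843931) has a TATA box 71 and 26 bases before the start. RPS8A (chr5:6853107-6853256) has a site II element 43 bases before the start and another, on the other strand, 22 bases before it. Not every ribosomal protein promoter is like that of RPS8A. RPL19A, at a mean of 893 FPKM, had only TATA box letter matches in its 150 bases. RPS8A also has a TATA box letter match on the other strand, 85 bases before the start.
BGLU18: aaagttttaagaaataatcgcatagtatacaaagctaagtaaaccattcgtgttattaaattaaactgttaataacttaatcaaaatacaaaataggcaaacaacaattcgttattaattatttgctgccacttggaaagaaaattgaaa
BGLU23: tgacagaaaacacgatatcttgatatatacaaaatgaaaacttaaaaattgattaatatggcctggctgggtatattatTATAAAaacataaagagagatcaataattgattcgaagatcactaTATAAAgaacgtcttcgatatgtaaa
RPS8A: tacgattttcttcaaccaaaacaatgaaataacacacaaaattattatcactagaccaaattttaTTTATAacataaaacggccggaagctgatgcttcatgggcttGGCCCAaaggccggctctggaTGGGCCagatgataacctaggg

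Markers of the labelled tissue, callus, were on in part. Of 16 callus and regeneration genes, 9 were on, 5 lay between and 2 were silent. RAP2.6L, an ERF factor of shoot regeneration, was at 172, 182 and 211 FPKM, and WIND1, which drives wound callus, at 187, 179 and 192. WIND3 and WIND2 had means of 59.5 and 38.9 FPKM, and WIND4 only 0.221. WOX11, a founder-cell factor, was at 33.2, 32.4 and 35.5 FPKM. The pluripotency factors PLT3, PLT5 and PLT7 were all on, at means of 19.8 to 28.3 FPKM. ERF115, a regenerative factor, was at 10.6, 16.2 and 15.7 FPKM. The LBD genes of the list were low. LBD16, which starts callus formation on auxin medium, was at 0.833, 0.575 and 0.810 FPKM, LBD17 and LBD18 were under 0.5 FPKM in each library, LBD29 had no count in the 3 libraries, and PUCHI was silent. For LBD29, 3 counts over the 3 libraries would be 0.0558 FPKM, which is the limit that a count of 0 allows here.

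Shoot identity genes were on at low to moderate levels. In the shoot meristem list 8 of 10 genes were on and none was silent. KNAT6 led at 27.8, 26.5 and 29.1 FPKM, followed by KNAT1 at 20.3, 16.7 and 17.9; both are homeobox genes that keep meristem cells undifferentiated. STM, the defining homeobox gene of the shoot meristem, was at 3.39, 4.07 and 2.79 FPKM. CLV3, the signal peptide of its stem cells, was at 3.83, 3.18 and 3.22 FPKM, and its receptor CLV1 at 6.23, 5.58 and 4.98. WUS, which specifies the stem cell niche, was at 0.784, 0.427 and 1.06 FPKM from 19, 9 and 25 counts, and UFO was at 0.645, 0.313 and 0.452. These last 2 genes did not meet the rule for being on, WUS because of replicates 1 and 2. The WUS values did not pass the test for spread beyond counting noise (edgeR deviance test, adjusted p = 0.16).

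Organ boundary genes were lower, with 5 of 10 on. CUC1 and CUC2, which separate organs and are needed for shoot regeneration, were at 8.59, 8.30 and 7.55 FPKM and at 6.15, 7.36 and 6.52. CUC3 was at 0.860, 0.577 and 0.440 FPKM. ESR1, RAX1 and BOP2 were on, and LOB lay at the threshold with 1.63, 0.986 and 1.55 FPKM. Of 18 leaf polarity and growth genes 16 were on, with a median of 4.55 FPKM against 4.81 over protein-coding genes. PHB and PHV, which set the upper side of leaves and also mark vascular and meristem cells, were at 85.8, 81.5 and 84.9 FPKM and at 85.8, 84.5 and 89.8. REV, of the same family, had a mean of 41.1 FPKM. ANT, a growth factor gene of organ primordia, was at 49.0, 44.6 and 49.3 FPKM. The YAB genes of the lower leaf side ranged from 3.44 to 22.6 FPKM in the mean and the KAN genes from 2.29 to 2.42. AS2 and WOX3 were the members that were not on.

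Most root identity genes were not on. Of 9 root meristem genes 3 were on and 4 were silent. SHR, made in the vascular cylinder, was at 22.7, 23.1 and 26.2 FPKM, its partner SCR at 6.21, 5.87 and 4.86, and WOX5, the marker of the root quiescent centre, at 2.99, 2.65 and 2.51. PLT1, RGF1 and RGF2 had no count and PLT2 stayed under 0.1 FPKM, although these define the growing root tip. All 4 root cap genes (SMB, FEZ, BRN1 and BRN2) were silent. Of 14 endodermis and suberin genes 3 were on, the suberin enzymes CYP86A1 and ASFT and the peroxidase PER64, at means of 1.80 to 2.90 FPKM. CASP5, of a family that builds the Casparian strip, and the suberin regulator MYB41 had no count. In the root hair list 4 of 9 were on, led by RHD6 at 5.27, 3.99 and 4.59 FPKM and CPC at 4.66, 3.73 and 3.87. The hair growth genes EXPA7, EXPA18, COBL9 and RSL4 were all under 1 FPKM.

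Most genes of the vascular and surface lists were on, but not all lists were high. The median was 12.3 FPKM for phloem and cambium and 15.9 for epidermis and cuticle. It was 3.86 FPKM for xylem and secondary wall and 3.18 for stomata, below the 4.81 of protein-coding genes. At 2 FPKM, 8 xylem and 7 stomatal genes were on. In the phloem and cambium list 17 of 19 genes were on. SMXL5, which promotes phloem formation, was at 124, 118 and 133 FPKM, and OPS, a protein of phloem precursor cells, at 95.9, 97.3 and 110. WOX4 and its upstream receptor gene PXY, which keep cambium dividing, had means of 65.3 and 60.2 FPKM. Sieve element and companion cell genes were also on: SEOR1 was at 43.4, 37.4 and 45.9 FPKM and the sucrose loader SUC2 at 35.2, 31.2 and 36.4. In the xylem and secondary wall list 11 of 14 were on. The proteases XCP2 and XCP1 led at means of 17.7 and 15.5 FPKM, and CESA4, CESA7 and CESA8, which make cellulose of secondary walls, lay between 4.96 and 7.42. The vessel regulators VND7 and VND6 were close to the threshold, at 1.55, 1.18 and 1.74 FPKM and at 1.18, 0.977 and 1.1.

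Of 12 epidermis and cuticle genes 11 were on. LTP1, a lipid transfer protein of the epidermis, was at 1321, 1282 and 1070 FPKM, PDF1 at 218, 191 and 169, and the epidermal master regulator ATML1 at 12.3, 11.0 and 8.58. The trichome regulator GL3 was the member that was not on. Of 12 stomatal genes 10 were on, and they cover the lineage from SPCH, which starts it (7.59, 7.87 and 6.61 FPKM), to MUTE (0.985, 1.57 and 1.40) and FAMA, which ends division (2.04, 1.80 and 1.47). MUTE was under the threshold in replicate 1 only. KAT1, a channel of mature guard cells, was at 0.409, 0.255 and 0.157 FPKM.

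Most reproductive genes were not on. Of 14 flower genes 4 were on and 5 were silent. PI, a petal and stamen identity gene, was at 45.2, 48.5 and 38.6 FPKM, while AP3, with which its protein acts in flowers, had no count in any library, which allows up to 0.0447 FPKM at 3 counts. No other annotated gene overlaps PI. The flowering signals SOC1 and FT had means of 2.6 and 2.1 FPKM, and SEP3 was at 1.09, 1.26 and 1.87. AP1, CAL and SUP also had no count, and SEP1 was silent. In the embryo and seed list 1 of 13 genes was on: AGL15, a MADS factor that promotes somatic embryogenesis, at 28.7, 31.5 and 31.5 FPKM. LEC1 and the seed storage and oil body genes CRA1, CRU3, SESA1, OLEO1 and OLEO2 had no count, and LEC2 was silent. In the pollen and anther list 0 of 7 genes were on and DUO1, VGD1, PPME1, GRP17 and HTR10 were silent. Of 7 senescence genes 5 were on, led by NYC1, a chlorophyll breakdown enzyme, at 33.0, 28.8 and 29.5 FPKM, whereas SAG12, the marker of late senescence, had no count.

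**Figure D2:**
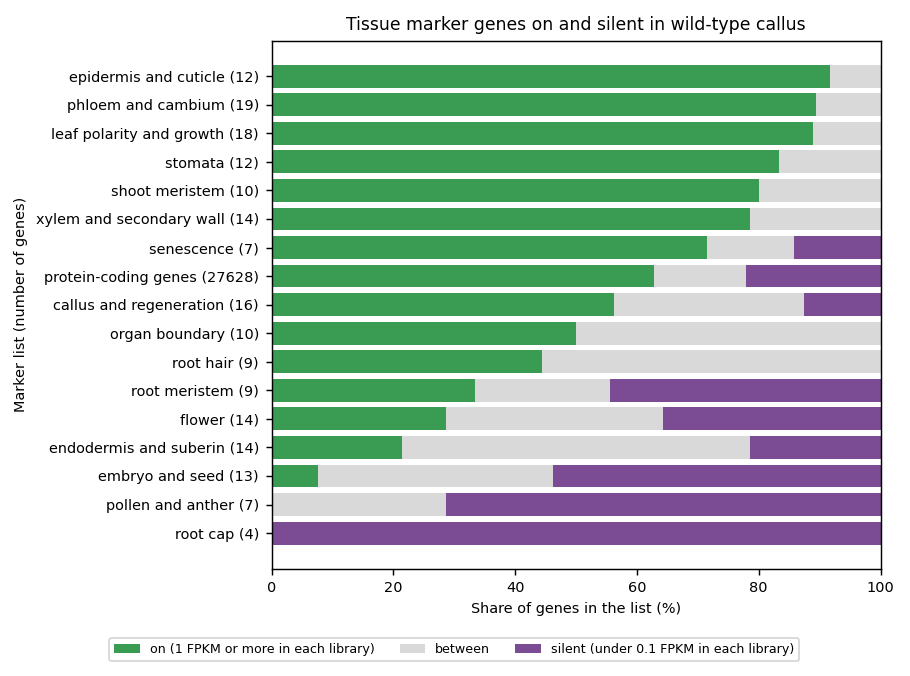
Share of genes in each tissue marker list that was on, between or silent in wild-type callus, in percent of the list, with list sizes in brackets and all protein-coding genes as a reference. Epidermis, phloem, leaf polarity, stomata, shoot meristem, xylem and senescence lists stand above the 62.9% of protein-coding genes that were on. Root cap, pollen and seed lists stand at the bottom.

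Cytokinin response genes were high while most cytokinin synthesis genes were low. Cytokinin binds AHK receptors, phosphate passes through AHP proteins to type-B ARR factors, and these switch on type-A ARR genes, which dampen the signal. Of 14 perception genes 12 were on. The receptors AHK3 and AHK4 were at 20.3, 19.8 and 19.9 FPKM and at 20.4, 19.2 and 18.9, AHP2 had a mean of 28.6 FPKM and the type-B factors ARR1, ARR10 and ARR12 means of 12.6 to 16.2. AHP6, which blocks the relay, was at 0.678, 0.661 and 0.641 FPKM.

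Among type-A genes 9 of 10 were on, with a median of 24.6 FPKM against 4.81 over protein-coding genes. ARR4 was at 134, 155 and 159 FPKM, ARR7 at 62.4, 76.6 and 68.1 and ARR5 at 35.1, 40.6 and 43.3. ARR17 was listed at 0, 0.192 and 0. Replicate 1 was the lowest library for all 9 genes that were on. CKX3, an oxidase that breaks cytokinin down, was at 52.6, 76.7 and 85.3 FPKM, and again replicate 1 was the lowest. It was the highest of 7 CKX genes, of which 5 were on; CKX1 and CKX6 are mostly covered by an antisense gene and are uncertain. Of 5 IPT synthase genes IPT1 was on, at 5.70, 7.00 and 7.23 FPKM, and IPT4, IPT5 and IPT7 were silent. CKX2 and CYP735A1 were also silent. LOG8, which frees active cytokinin, was at 10.8, 10.8 and 9.15 FPKM, and LOG1 and LOG5 lay at the threshold with means of 0.947 and 1.1.

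The auxin pathway showed a similar split. All 24 perception and response genes were on, with a median of 20.8 FPKM. ARF5, an auxin response factor of organ and vascular initiation, was at 70.2, 67.6 and 75 FPKM, the receptor TIR1 at 46.6, 50.1 and 48.9, and GH3.6, which conjugates auxin, at 51.2, 57.9 and 62.0. All 5 PIN exporters and all 4 AUX1 and LAX importers were on. PIN3 was at 60.5, 59.8 and 63.0 FPKM and AUX1 at 48.6, 43.9 and 54.2, while PIN2, of root epidermis, was at 3.36, 3.5 and 3.44. For synthesis, TAA1 was at 16.1, 16.9 and 15.0 FPKM. Of 9 YUC genes, which catalyse the last step, only YUC4 and YUC6 were on, at means of 2.27 and 1.45. The other 7 were neither on nor silent, down to YUC9 at a mean of 0.0734.

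**Figure D3:**
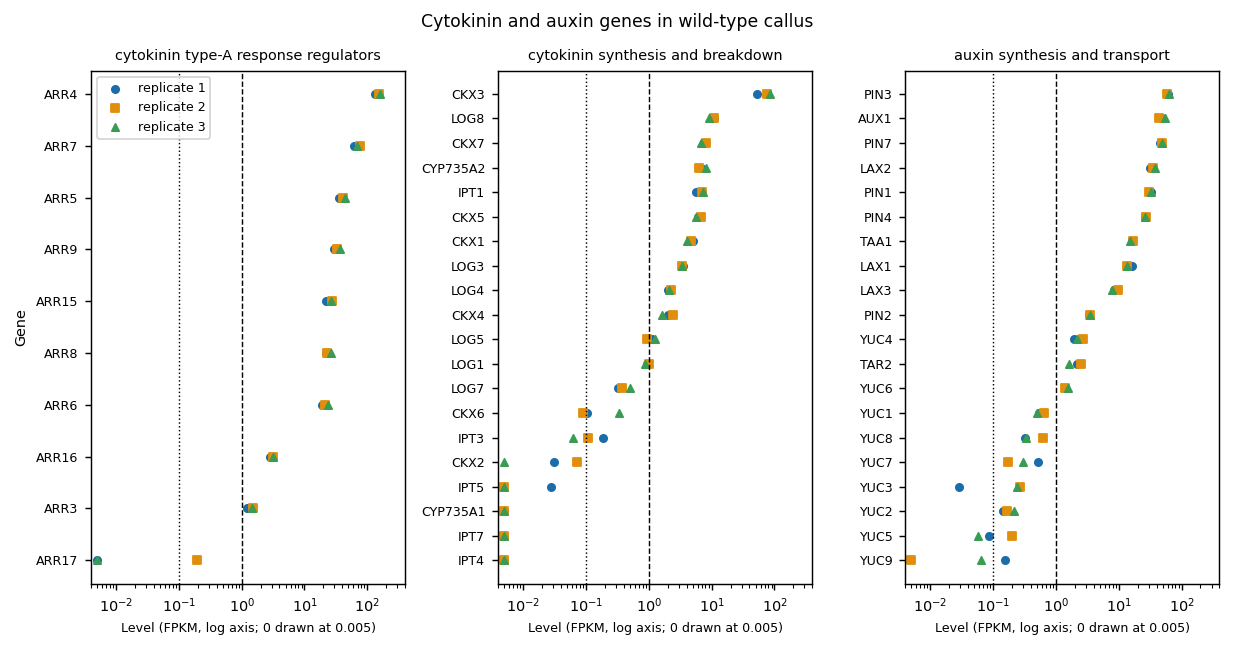
Levels of type-A response regulator genes, cytokinin synthesis and breakdown genes and auxin synthesis and transport genes in FPKM on a log axis, with 1 point per library; the dashed line marks 1 FPKM, the dotted line 0.1 FPKM, and a level of 0 is drawn at 0.005. ARR4, CKX3 and PIN3 lead their panels, and IPT4, IPT7 and CYP735A1 are at 0 in every library.

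In the ethylene pathway ACS2, a synthase of the hormone's precursor, was at 40.6, 52.9 and 58.0 FPKM and was 1 of 4 ACS genes on among 8; ACS5, ACS9 and ACS11 were silent. The receptor ERS1, the kinase CTR1 and the factor EIN3 had means of 77.7, 54.5 and 61.7 FPKM. Jasmonate genes were also high, with 13 of 15 on. The storage proteins VSP2 and VSP1, jasmonate targets, were at 1273, 997 and 1031 FPKM and at 253, 201 and 219, and the repressor gene JAZ10 at 139, 135 and 153. PDF1.2A, a target of jasmonate with ethylene, was at 0.623, 0.614 and 0.273 FPKM. MYC2, the main factor of the pathway, was listed at 0 in every library, but 98.5% of its span is covered by an opposite-strand gene.

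Salicylic acid genes were on in 8 of 9 cases. The exporter EDS5 was at 63.8, 55.3 and 64.8 FPKM and PR5 at 70.8, 55.3 and 45.7, and the defence marker PR1 at 5.03, 0.657 and 1.11. Gibberellin genes were on in 17 of 23 cases. All 3 GID1 receptors had means of 14.8 to 25.5 FPKM and GA2OX2, which inactivates the hormone, was at 28.4, 30.8 and 36.0, while of 5 genes for the final synthesis steps GA3OX1 and GA20OX2 were on, at means of 3.19 and 1.74; GA2OX1 was silent. Of 20 abscisic acid genes 15 were on, led by the receptor PYR1 (22.9, 24.5 and 23.8 FPKM), and the drought and seed genes RAB18 and RD29B and the synthesis gene NCED6 were silent. In brassinosteroid genes 11 of 12 were on, led by the kinase BIN2 at 75.9, 71.7 and 75.4 FPKM; BR6OX1 was silent. The strigolactone receptor D14 was at 48.7, 48.1 and 55.3 FPKM and the synthesis genes CCD7, CCD8 and D27 were all under 0.5 FPKM.

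Photosynthesis genes of the nucleus were on throughout. All 22 light-harvesting and photosystem genes and all 14 Calvin cycle genes were on, with medians of 193 and 107 FPKM, and both lists together held 1.43% ± 0.186 of all FPKM (SD, n = 3). LHCB1.3 was at 1670, 1641 and 1250 FPKM, RBCS1A at 1332, 1316 and 1036, and the Rubisco activase gene RCA at 233, 223 and 181. In these 3 genes replicate 3 was the lowest library. Chlorophyll synthesis genes were on in 9 of 11 cases, with CRD1 at 147, 147 and 125 FPKM and PORB at 117, 115 and 95.5, whereas PORA, which acts in dark-grown seedlings, was at 0.0621, 0.25 and 0.191. Greening regulators were moderate, at means of 14.2 FPKM for GLK1 and 11.6 for GLK2. PGLP1 of photorespiration was silent, and a near-identical copy makes its value uncertain.

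Sugar metabolism was highly expressed. All 10 glycolysis genes were on with a median of 294 FPKM, led by GAPC2 (702, 725 and 712) and GAPC1 (644, 673 and 682), a pair of close copies. Low-oxygen genes were on in 9 of 10 cases, with ADH1 at 175, 198 and 166 FPKM, ALAAT1 at 141, 140 and 144, and LBD41, a regulator among hypoxia core genes, at 72.3, 87.0 and 118. Several enzymes that cleave sucrose were on, with vacuolar invertase VI2 at 96.5, 85.4 and 89.5 FPKM, cytosolic CINV1 at 73.9, 73.2 and 76.7, and SUS1 at 66.4, 68.4 and 69.1; CWINV2 and CWINV4 were silent. All 11 starch genes were on, led by APS1 at 92.7, 89.1 and 79.4 FPKM.

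In the nutrient lists, nitrate assimilation was high, with NIA2 at 289, 296 and 324 FPKM, GLT1 at 263, 258 and 264, and the transporter NRT1.1 at 52.5, 45.0 and 49.4. The starvation-induced transporters NRT2.2 and NRT2.4 had no count. AMT1;1 was also at 0, but 81.1% of its span is covered by an opposite-strand gene. Iron deficiency genes were low, with 3 of 11 on. The iron store FER1 was at 92.1, 87.4 and 89.3 FPKM, while IRT1, FRO2 and FIT of iron uptake were under 0.2 FPKM in each library; FER1 is over 50% covered by another gene. In the phosphate list 12 of 14 were on, led by PHO2 at 130, 116 and 132 FPKM. The sulfate reductases APR1 and APR3 had means of 134 and 124 FPKM and SULTR1;1, induced in sulfate-starved roots, had no count.

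Specialised metabolism was on for lignin precursors and glucosinolates and partial for flavonoids. Of 15 lignin and phenylpropanoid genes 14 were on, with C4H at 349, 344 and 370 FPKM and CCOAOMT1 at 359, 328 and 347. Of 23 glucosinolate and camalexin genes 22 were on, led by CYP83B1 (209, 161 and 193 FPKM), TGG1, a myrosinase (154, 140 and 104), and CYP79B2 (154, 107 and 135). Of 15 flavonoid and anthocyanin genes 9 were on, led by chalcone synthase TT4 at 81.0, 86.7 and 80.1 FPKM. TT2, a seed coat regulator, had no count. F3H, an enzyme in the middle of the pathway, was at 0 as well, but 94.5% of its span is covered by an opposite-strand gene.

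Of 23 cyclin and kinase genes 22 were on, with CYCD3;1, a cytokinin-responsive cyclin, at 77.4, 75.5 and 74.5 FPKM, and the kinase CDKA;1 at 51.9, 54.0 and 56.7. All 12 replication genes and all 7 mitosis and cytokinesis genes were on. TSO2, of nucleotide supply, was at 99.9, 99.4 and 101.2 FPKM, the 6 MCM helicase genes had means of 17.6 to 28.0, and KN, the syntaxin of the division plane, was at 34.0, 37.5 and 35.6. Heat shock genes were on in 4 of 8 cases, with HSP90.1 highest at 11.7, 14.1 and 12.9 FPKM. Of 11 rapid stress genes 7 were on, led by WRKY33 at 20.07, 17.2 and 25.8 FPKM, and the cold factor CBF1 was silent. PNET1 (AT1G07970, chromosome 1 at 2469218 to 2472806), the gene altered in the other libraries of the study, was at 12.1, 11.6 and 10.7 FPKM; the match of this name to the locus rests on background knowledge.

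Some silent calls go with the annotation. Among protein-coding genes that no other annotated gene overlaps, 60.5% were on and 23.7% were silent. A small overlap did not go with fewer genes on: of 5599 genes covered by over 0 to 25%, 81.0% were on and 7.91% were silent. Among the 572 genes whose span is over 99% covered by another gene, 5.77% were on and 85.0% were silent. The labels call the libraries strand-specific, while the sources used here do not give the strand setting of the counting. Of the 668 list genes 13 were over 50% covered, of which 5 were on, and 3 (MYC2, F3H and AMT1;1) were silent. The flowering repressor FLC, at 0.175, 0.301 and 0.626 FPKM, is fully covered by an opposite-strand gene. The part of overlap in these low values was not tested. Of the 55 silent list genes 36 had no count at all, which allows at most 0.0165 to 0.0933 FPKM at 3 counts over the 3 libraries, depending on gene length.

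**Figure D4:**
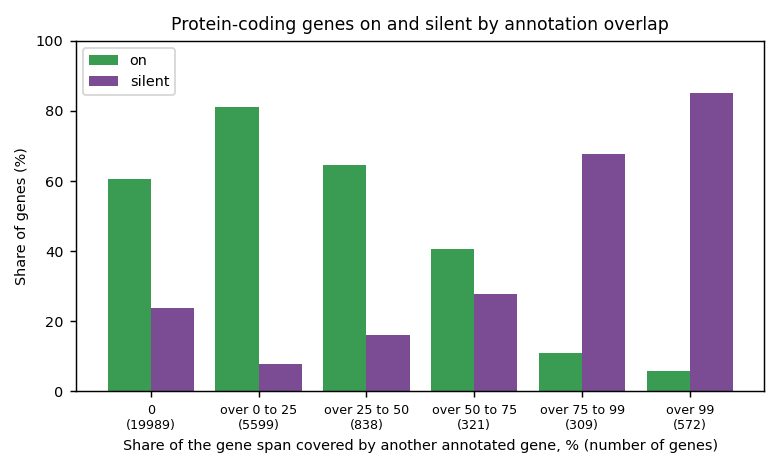
Share of protein-coding genes that were on or silent in wild-type callus, in percent, by the share of the gene's span that another annotated gene covers; the number of genes in each class is in brackets. The share on is 60.5% without overlap, 81.0% at over 0 to 25% coverage and 5.77% above 99% coverage, where 85.0% were silent.

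The 3 libraries were close to each other, and their differences were not spread evenly over the lists. The coefficient of variation (CV, the SD over the mean) of a gene that was on had a median of 6.06%. It was 12.2% for genes on under 5 FPKM and 3.78% for genes of 100 FPKM or more. The highest library was at least 2-fold over the lowest in 173 genes, 0.973% of those that were on. Over all 17771 genes that were on, replicates 1, 2 and 3 were the highest library for 6129, 5666 and 5976. They were the lowest for 5944, 5947 and 5880, which is the background for the counts per list. Spread beyond counting noise was tested with edgeR by the deviance of each gene's counts from 1 common level with 2 degrees of freedom. Of 19411 genes with a mean count of 10 or more, 3322 (17.1%) were called varying at an adjusted p under 0.05, and the common biological coefficient of variation was 5.99%. At higher counts this test detects smaller shifts, so shares called cannot be compared between lists of different level. Of 10 glycolysis genes 7 were called. Their median log2 ratios to the mean of the 3 libraries were only -0.04, 0.03 and -0.01. Replicates 1 and 3 were the farthest apart, with 2406 genes called between them against 1614 for replicates 1 and 2 and 1637 for replicates 2 and 3. The mean deviance per degree of freedom of a pair was 3.67 to 5.36, so each pair differed by more than counting noise.

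Replicate 3 was lower in green and surface tissue genes. It was the lowest library for 22 of 22 light-harvesting and photosystem genes, and all 22 were called varying; the median log2 ratio to the mean of the 3 libraries was -0.23 in replicate 3 and 0.10 in both other replicates. The antenna genes LHCB1.2 and LHCB1.1 moved the most in the list, at 198, 198 and 122 FPKM and at 179, 164 and 110, and are close copies of each other. Replicate 3 was also the lowest for 13 of 14 Calvin cycle genes, 9 of 9 chlorophyll synthesis genes, 11 of 11 epidermis genes and 9 of 10 stomatal genes that were on. The regulators GLK1 (16.5, 15.1 and 11.1 FPKM) and GLK2 (12.5, 12.9 and 9.38) were lowest there too. They were the only 2 of 15 greening and clock genes called varying, and the median log2 ratio of that list in replicate 3 was -0.06. What set the libraries apart was not tested. In the other direction, replicate 3 was the highest library for all 7 rapid stress genes that were on and for 13 of 17 phloem and cambium genes, while replicate 2 was the lowest for 14 of those 17.

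Replicate 1 was higher in glucosinolate and camalexin genes. It was the highest library for 21 of 22 glucosinolate and camalexin genes that were on, and 19 of 23 tested were called varying, with a median log2 ratio of 0.23. All 3 suberin and endodermis genes that were on were highest in replicate 1. PER64 was at 4.64, 2.07 and 1.67 FPKM, and ASFT at 2.68, 1.33 and 1.39. CESA7 was at 10.7, 6.78 and 4.82 FPKM, and CESA4, CESA8 and the laccase gene LAC4 were also highest in replicate 1. The xylem list was mixed, with replicate 1 the highest library for 6 of 11 genes that were on and replicate 3 for 4, among them XCP1 at 15.7, 13.6 and 17.2 FPKM. In the salicylic acid list replicates 1 and 3 were each the highest for 4 of 8 genes. The salicylic acid marker PR2 was at 34.4, 11.8 and 18.25 FPKM (CV 54.1%, adjusted p = 2.9e-69, edgeR deviance test). Together with PME17, a pectin methylesterase (12.5, 6.02 and 3.48 FPKM, CV 63.4%), and AT5G26270 (46.6, 11.6 and 25.2 FPKM, CV 63.4%), PR2, listed as BGL2, was among the 10 most variable genes with a mean of at least 5 FPKM that were called varying. The others were AT2G25510, AT1G09787, the xylan gene IRX15, the protease AED1, the lectin-like LLP, the UDP-xylose transporter UXT1 and AT3G07725. Of these 10, only AT1G09787 was not highest in replicate 1.

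By the edgeR deviance test, 0 of 13 cytokinin perception genes and 0 of 7 mitosis genes were called varying, with 1 gene in each list at an unadjusted p under 0.05. In the cyclin and kinase list 3 of 23 genes (13.0%) were called and in the replication list 2 of 12 (16.7%), shares near the 17.1% of all genes tested. In the abscisic acid list 1 of 16 genes tested was called and in the greening and clock list 2 of 15. No organ boundary gene was called or had an unadjusted p under 0.05 among 10, all of them at low counts, and a miss does not show that values are equal. Of 9 type-A response regulators tested 7 were called varying, with replicate 1 the lowest of the 3 for each of them. The median level was 24.6 FPKM in this list, 12.7 in cytokinin perception and 20.3 in mitosis and cytokinesis. The test detects smaller shifts at higher counts, so the shares called in these lists cannot be compared. NUCL1, a nucleolar protein of ribosome assembly, was the steadiest gene of 100 FPKM or more at 321, 321 and 320 FPKM (CV 0.161%).

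**Figure D5:**
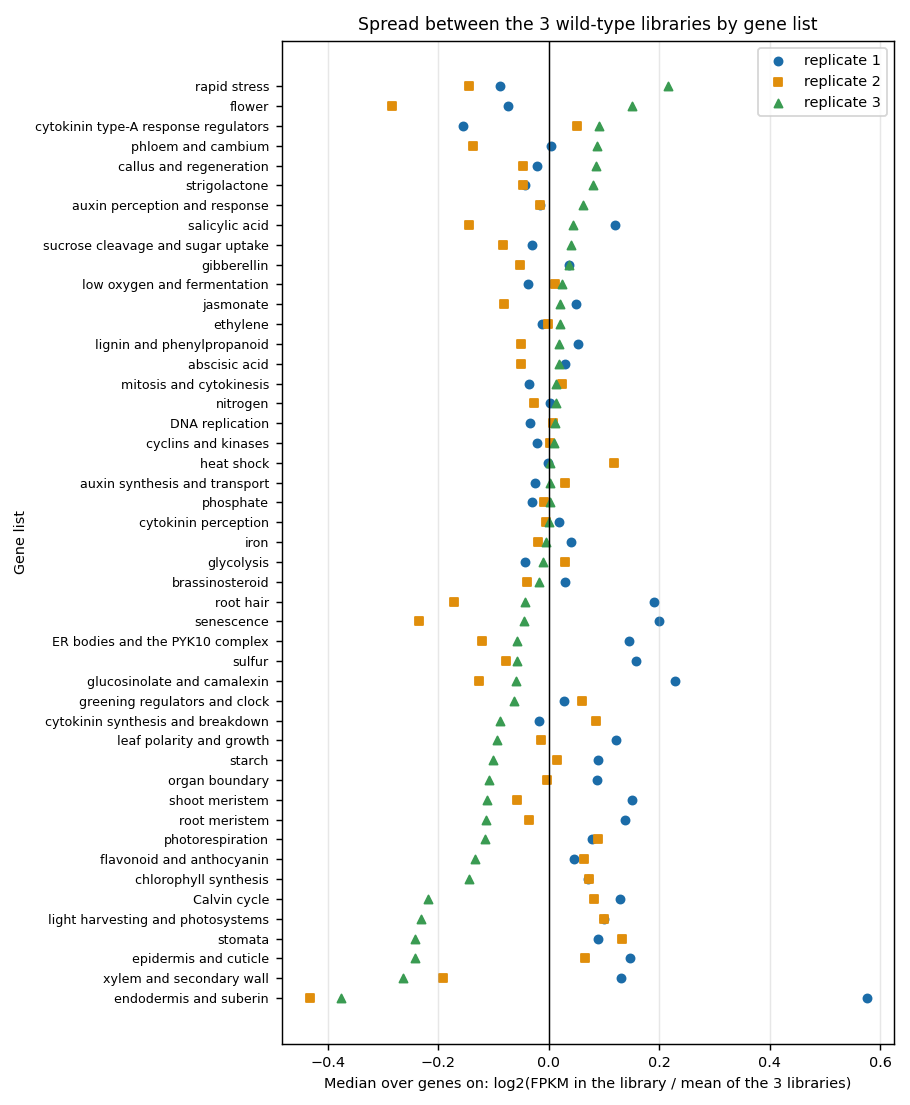
Median over the genes on in each list of the log2 ratio of a library's FPKM to the mean of the 3 libraries, with 1 point per library. Replicate 3 lies at -0.23 for light harvesting and photosystems, replicate 1 at 0.23 for glucosinolates and camalexin, and the cytokinin perception, cyclin and DNA replication lists lie close to 0 in all 3 libraries.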

How the data were processed

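The 3 wild-type libraries were used, and the other 6 entered no value. Raw counts per gene were deposited by the authors in 1 table, and their deposited FPKM table holds those counts divided by gene length and by 1 constant per library, 99.6% to 100.1% of its count total, as checked on the values. Per the submitters' processing notes, tools were HTSeq 0.6.1p1 and HISAT2 2.0.4 and the build was TAIR10, with no roles stated. Annotation release and strand setting are not given there.

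Levels, on and silent calls came from FPKM (Python 3.11.15, pandas 2.3.3). Gene coordinates matched the TAIR10 reference for 32532 of 32548 genes found in it. Spread came from counts with edgeR 4.0.16 in R 4.3.3: TMM scaling, genes with a mean count of 10 or more, Poisson deviance against a chi-square with 2 degrees of freedom, Benjamini-Hochberg adjustment over all genes tested. On simulated data run on 19421 genes, with 200 changed, 50% of genes with an added CV of 20% and 80% with one of 40% were recovered, and 8 of 138 calls were false. Limits at 0 counts use 3 counts and cover counting error only.

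The 49 lists and the rule for named genes were chosen with earlier results of these data known, and the ER body list and PNET1 were added after values were seen. The rule took the 25 highest genes, up to 6 highest and the silent members of a list, members near 1 FPKM and the 10 most variable genes; other list members were named after their values were seen. The files or the reference pair 655 of 668 members with the list's symbol. Alternatives were other thresholds, TPM, TMM-scaled FPKM, other size factors, other filters and leaving out each library. Results for 2 list members are not reported here.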

Additional observations from a re-analysis of the deposited data

How the results depend on the processing

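The counts of genes on and silent stayed within 1.5 times the main count under every alternative run. Genes on ranged from 16268 at 2 FPKM to 18921 at 0.5 FPKM, and genes silent from 7523, without genes over 50% covered by another gene (an alternative chosen after seeing the data), to 10982 at 0.2 FPKM. Leaving out a library gave 17881 to 17957 genes on and 10236 to 10251 silent. List members on ranged from 456 at 2 FPKM to 532 at 0.5 FPKM, and from 504 to 508 without a library. Of 294 counts of a single list under an alternative, 5 moved by over 1.5 times. At 0.5 FPKM 8 organ boundary genes and 5 endodermis and suberin genes were on. At 2 FPKM 2 root hair genes, 1 flower gene and 1 endodermis and suberin gene were. The number of varying genes was 3326 with RLE factors, 3341 with library totals and 3219 with no filter on low counts. With 1 library left out, which leaves 2, it ranged from 1614 to 2406, with 1637 without replicate 1, and the biological coefficient of variation ranged from 5.46% to 6.83%. The 100 highest genes held 15.2% when counts were not divided by length, and 17.03% to 17.12% without a library. No paired analysis was possible because 1 group was described and no groups were compared. Levels near 0.1 FPKM rest on about 3 counts per library.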
